A study of Mus musculus with 12 samples.

Results

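NRF2 is encoded by Nfe2l2, and its RNA was followed together with that of 9 of its best known antioxidant target genes, Nqo1, Hmox1, Gclm, Gclc, Gss, Gsr, Srxn1, Txnrd1 and Slc7a11. These are 10 of the 35275 genes counted in 12 libraries, and each was found by its symbol with a single identifier. All 10 passed the filter on low counts, which kept 12849 genes. The set was chosen by gene name, and it was selected on a view of these same measurements, the RNA levels in the DMSO, olaparib and MNA libraries. For that reason the levels and differences of the 10 genes are given as a description without p-values. Counts of members past a threshold stand beside the share of all genes past it, and nothing is read from these counts. For other genes of the same network p-values are given. The lists of those genes were also chosen with earlier results of these data known, so these p-values are not an independent test.

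The cells were wildtype mouse bone marrow-derived macrophages (BMDMs), kept in IL-4, IL-10 and M-CSF, cytokines of an M2, or alternatively activated, state, and exposed to DMSO, olaparib or MNA for 6 days. Each of the 3 groups had 4 libraries numbered 1 to 4, and the study's legend gives 4 donor mice. DMSO is the solvent control, olaparib inhibits PARP enzymes, and MNA is methyl-nicotinamide, a methylated form of nicotinamide. The labels give no doses, and marrow cultured this way need not hold macrophages alone. Depth was 21146291 to 31446849 counts per library, with overlapping ranges between groups. Levels are CPM, counts scaled to a common library size with TMM factors, and levels of different genes are compared per kilobase of exon (RPKM).

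MNA replicate 2 stood apart from the other MNA libraries. On the first principal component of all tested genes it lay at -35.97, between DMSO libraries at -43.68 to -33.64, while MNA replicates 1, 3 and 4 lay at 59.91 to 63.38. It is therefore shown apart, and fold changes of MNA against DMSO are given with and without it. Macrophage genes such as Lyz2, Csf1r and Cd68 were abundant in every library, while Fcgr1 was at most 2.30 CPM in any. The summed level of 9 macrophage markers was 4512 to 5779 CPM with DMSO, 8966 to 10751 CPM with olaparib and 4147 to 7670.5 CPM with MNA. The markers did not move alike. With olaparib the mean was below that of DMSO for Cd68 (839 against 1228 CPM) and Mrc1 (571 against 679 CPM). It was above for the others, among them Lyz2 (6009 against 1918 CPM) and Itgam (1469 against 439 CPM). The part of these differences in the results was not tested. Of the markers listed for other cells, 9 neutrophil genes summed to 1.34 to 10.6 CPM with DMSO and 2.93 to 3.89 CPM with olaparib, and 7 erythroid genes to at most 4.03 and 0.337 CPM. In MNA replicate 4 these sums were 68.3 and 56.1 CPM. Markers of eosinophils, basophils and mast cells summed to 9.35 to 14.8 CPM with DMSO, 40.6 to 66.8 CPM with olaparib and 12.2 to 17.8 CPM with MNA, with 2 of 9 genes over 1 CPM in each group. These 2 were Siglecf, at means of 4.76, 46.4 and 7.33 CPM with DMSO, olaparib and MNA, and Gata2, at 6.27, 8.38 and 6.11 CPM. The higher sum with olaparib was thus mostly Siglecf, and 5 of the 9 genes had 0 counts there. In the same order the sums were 17.99 to 21.1, 18.6 to 23.5 and 18.3 to 27.1 CPM for 7 dendritic cell genes, 0.891 to 2.55, 2.01 to 6.13 and 2.22 to 9.73 CPM for 9 lymphocyte genes and 7.13 to 12.4, 6.77 to 10.3 and 3.43 to 6.55 CPM for 8 stromal genes. The part of these sums in the results was not tested. In bulk RNA, fewer cells of a type and less RNA per cell cannot be told apart.

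NRF2 is a basic leucine zipper transcription factor whose amount is set mainly after transcription. KEAP1 holds it for ubiquitination by a cullin ligase until oxidants or electrophiles modify KEAP1, and stabilised NRF2 then pairs with a small MAF protein on antioxidant response elements. BACH1 occupies the same elements as a repressor. The targets supply and recycle the thiol antioxidants glutathione and thioredoxin, reduce quinones and degrade heme. In macrophages NRF2 is known for limiting oxidative stress and inflammatory gene expression.

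Promoter sequence was examined because these genes are grouped by a shared regulator. RefSeq promoters (GRCm38.p6), each from 250 bases before to 50 bases after a start site, were at hand for 7 of the 10 genes, and no entry was found for Hmox1, Gclc and Gsr. The core of the antioxidant response element, TGACNNNGC or GCNNNGTCA on the other strand, was searched on both strands. It was found for 4 of the 7 genes, Nfe2l2, Srxn1, Gclm and Txnrd1, and in none of these windows of Nqo1, Gss and Slc7a11. Of all 32851 promoters, 12.4% held it, and of all 27025 genes 13.99% had such a promoter. In 6 lists of other genes described later, 13.6% (NRF2 regulators and partners) to 25.0% (other NRF2-linked genes) of promoters held it. The matches before the start sites are shown for 3 members and, for comparison, for Prdx1 and G6pdx. These are 2 genes outside the 10 that rose with both treatments. Other genes described later had such a match as well, among them Mafg, without a call against DMSO, and Maff and Sesn2, which fell. Each sequence reads 5′ to 3′ along the gene, with the matching 9 bases in capitals.
Nfe2l2: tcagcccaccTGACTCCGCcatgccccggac
Gclm: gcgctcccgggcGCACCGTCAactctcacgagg
Txnrd1: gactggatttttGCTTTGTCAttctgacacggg
Prdx1: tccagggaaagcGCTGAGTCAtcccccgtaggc
G6pdx: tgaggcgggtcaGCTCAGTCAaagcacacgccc

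The Nfe2l2 window lies at chr2:75704883-75704913, minus strand, and the element begins 240 bases before the start site. For Gclm the window is chr3:122245411-122245443, plus strand, with the element at 134 bases, and for Txnrd1 it is chr10:82859102-82859134, plus strand, at 92 bases before the second of 3 annotated start sites. The Prdx1 window is chr4:116685454-116685486, plus strand, and the G6pdx window is chrX:74428917-74428949, minus strand, with elements 133 and 57 bases before the start. The Srxn1 match lies after its start site. In Nfe2l2 the element is written along the gene, and in the other windows shown it is on the other strand. A match describes letters and not binding, and distal elements lie outside these windows.

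In DMSO the 10 genes differed widely in level per length. Hmox1 was highest at 215 ± 12.3 RPKM (mean ± SD, n = 4), above 98.2% of tested genes. Nfe2l2 followed at 94.1 ± 11.7 RPKM, then Srxn1 at 70.5 ± 6.25 and Txnrd1 at 62.4 ± 2.95 RPKM. A middle group held Gsr at 17.6 ± 0.474, Gclc at 15.4 ± 0.772, Gclm at 10.7 ± 1.31 and Slc7a11 at 10.3 ± 0.596 RPKM. Gss at 3.15 ± 0.407 and Nqo1 at 2.63 ± 0.608 RPKM were lowest, with Nqo1 above 39.3% of tested genes. Within this order the libraries of 3 neighbouring pairs overlapped, namely Srxn1 and Txnrd1, Gclm and Slc7a11, and Gss and Nqo1. The order depends on the length used, the union of all annotated exons, which can exceed that of the main transcript. It was 5915 bases for Gss, 13922 for Slc7a11 and 1553 for Nqo1. Before this division Gss had a mean of 18.6 CPM and Nqo1 of 4.08 CPM.

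Nfe2l2 (ENSMUSG00000015839, GRCm38 chr2:75675513-75704641, minus strand), the gene of the regulator itself, stood at 423, 336, 326 and 343 CPM in DMSO replicates 1 to 4 and at 655, 712, 709 and 718 CPM in olaparib replicates 1 to 4. With MNA it stood at 925, 907 and 835 CPM in MNA replicates 1, 3 and 4 and 369 CPM in MNA replicate 2. Every olaparib library and 3 of 4 MNA libraries lay above the DMSO range, and MNA replicate 2 lay inside it. The log2 fold change against DMSO was 0.97 ± 0.22 (SE) with olaparib and 1.09 ± 0.22 with MNA. Without MNA replicate 2 in the fit it was 0.97 ± 0.078 with olaparib and 1.31 ± 0.083 with MNA. MNA replicates 1, 3 and 4 also lay above every olaparib library.

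**Figure D1:**
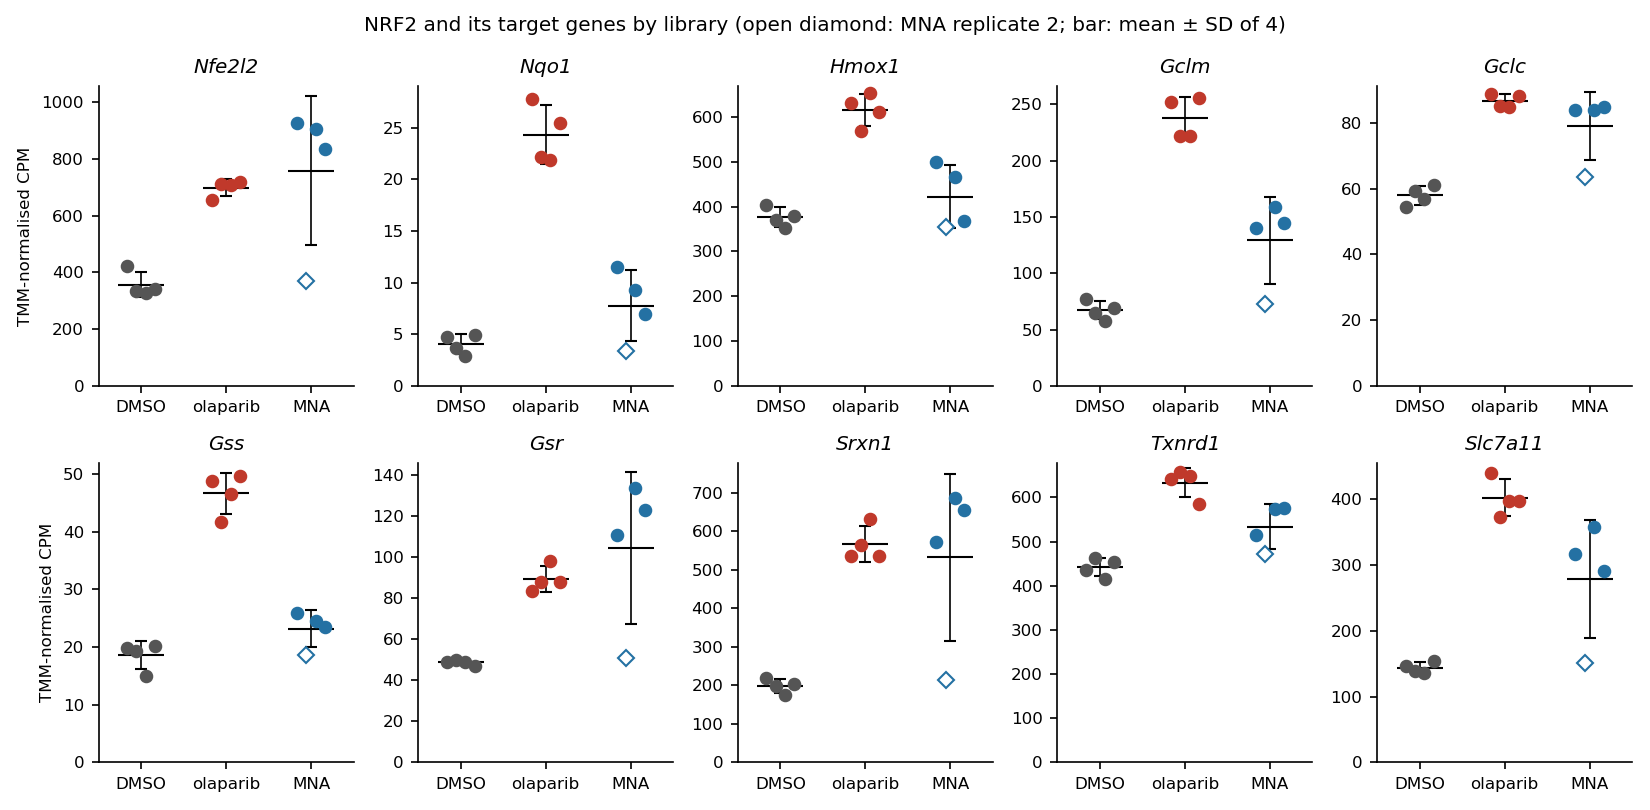
Each panel gives 1 gene, with TMM-normalised CPM on a linear axis from 0 and the 3 groups on the horizontal axis. Points are libraries, bars are the mean ± SD of 4, and the open diamond is MNA replicate 2. That library lies inside the DMSO range for 7 of the 10 genes and below the other 3 MNA libraries for all 10. Of 106 other tested genes of the network, it lies inside the DMSO range for 76 and below the other 3 MNA libraries for 44. The share over all tested genes was not counted. The 10 genes were chosen with these levels in view, and nothing is read from these counts.

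The plot of levels by library shows 3 patterns. For Nqo1, Hmox1, Gclm, Gss, Txnrd1 and Slc7a11 the 4 olaparib libraries lay above all 4 MNA libraries. For Nfe2l2 and Gsr the 3 MNA libraries other than replicate 2 lay above all olaparib libraries, and for Gclc and Srxn1 the olaparib and MNA libraries overlapped. The share of all genes with such orders was not counted, and nothing is read from the number of members in each pattern. Of 106 other tested genes of the network, 23 had olaparib wholly above MNA. Without MNA replicate 2, 39 had it wholly above and 15 wholly below. For Gclc, Gsr and Txnrd1 MNA replicate 2 lay just above the DMSO range, and for the other 7 genes inside it.

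Glutathione synthesis begins with the uptake of cystine by the exchanger xCT, encoded by Slc7a11 (ENSMUSG00000027737, GRCm38 chr3:49892526-50443614, minus strand). Slc7a11 stood at 146, 138, 136 and 154 CPM with DMSO and at 440.4, 373, 397 and 397 CPM with olaparib. With MNA it stood at 316, 357 and 291 CPM in MNA replicates 1, 3 and 4 and 151 CPM in MNA replicate 2. The groups of olaparib and DMSO did not overlap, and the fitted level was 2.799 times that of DMSO with olaparib and 1.94 times with MNA, or 2.23 times without MNA replicate 2.

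Glutamate and cysteine are then joined by glutamate-cysteine ligase, whose catalytic subunit is encoded by Gclc (ENSMUSG00000032350, GRCm38 chr9:77754535-77794485, plus strand) and whose modifier subunit is encoded by Gclm (ENSMUSG00000028124, GRCm38 chr3:122245557-122270732, plus strand). Gclc stood at 54.5, 59.4, 56.9 and 61.2 CPM with DMSO, 88.9, 85.1, 84.9 and 88.3 CPM with olaparib, and 83.9, 84.1 and 84.9 CPM in MNA replicates 1, 3 and 4 and 63.4 CPM in MNA replicate 2. Gclm stood at 77.6, 65.1, 57.9 and 69.4 CPM with DMSO, 252, 222, 222 and 256 CPM with olaparib, and 140.4, 159 and 144 CPM in MNA replicates 1, 3 and 4 and 72.9 CPM in MNA replicate 2. Neither gene's olaparib libraries overlapped DMSO, and the 3 MNA libraries other than replicate 2 lay between those groups for Gclm. Against DMSO the log2 fold change of Gclm was 1.82 ± 0.20 with olaparib and 0.94 ± 0.19 with MNA, or 1.13 ± 0.092 without MNA replicate 2. That of Gclc was 0.58 ± 0.086 with olaparib and 0.45 ± 0.086 with MNA, or 0.54 ± 0.049.

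The ratio of Gclm to Gclc RNA per length was 0.699 ± 0.106 with DMSO, 1.64 ± 0.0902 with olaparib and 1.05 ± 0.0716 with MNA without replicate 2, where that library had 0.688. The 3 groups of libraries did not overlap once MNA replicate 2 was set aside. Slc7a11 works with the heavy chain CD98, encoded by Slc3a2, which was looked at after its values were seen. Slc3a2 fell from 789 ± 79.1 CPM (n = 4) with DMSO to 447 ± 15.6 CPM with olaparib (log2 fold change -0.82 ± 0.20, edgeR adjusted p = 0.0124) and to 496 ± 188 CPM with MNA (-0.67 ± 0.20, edgeR adjusted p = 0.0307, or -0.95 ± 0.12 without MNA replicate 2). The ratio of Slc7a11 to Slc3a2 per length was 0.0465 ± 0.00545 with DMSO, 0.228 ± 0.01896 with olaparib and 0.205 ± 0.0455 with MNA without replicate 2. The MNA call of Slc3a2 ended on leaving out any 1 of MNA replicates 1, 3 and 4 or DMSO replicates 2 to 4 (edgeR adjusted p up to 0.0914). CD98 also serves other amino acid transporters.

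**Figure D2:**
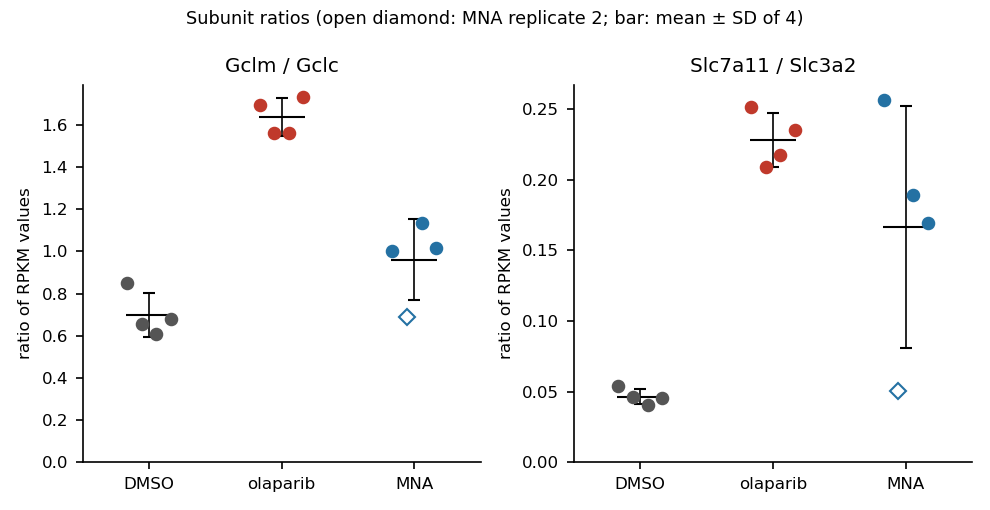
The left panel plots the RPKM of Gclm over that of Gclc and the right panel that of Slc7a11 over Slc3a2, on linear axes from 0, for each library of the 3 groups. Points are libraries, bars are the mean ± SD of 4 and the open diamond is MNA replicate 2. Gclm over Gclc lies between 0.609 and 0.852 with DMSO and between 1.56 and 1.73 with olaparib.

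Gss (ENSMUSG00000027610, GRCm38 chr2:155563181-155592810, minus strand) encodes glutathione synthetase, which adds glycine in the last step. It stood at 19.9, 19.4, 15.1 and 20.3 CPM with DMSO and 48.9, 41.8, 46.6 and 49.7 CPM with olaparib, and at 25.99, 24.5 and 23.5 CPM in MNA replicates 1, 3 and 4 and 18.6 CPM in MNA replicate 2. The olaparib libraries lay above the rest, and MNA replicates 1, 3 and 4 lay narrowly above the DMSO range. The log2 fold change was 1.33 ± 0.12 with olaparib and 0.31 ± 0.12 with MNA, or 0.40 ± 0.098 without MNA replicate 2. Gss overlaps Acss2 on the other strand, and 12.8% of its 31-base words also occur in other genes. Acss2 itself stood at 10.8 ± 2.103 CPM with DMSO, 50.3 ± 5.46 CPM with olaparib and 41.9 ± 3.58 CPM with MNA without replicate 2, and since the strand setting of the counting is not stated, its part in the Gss value was not tested. For the other 9 genes the shared part was at most 6.82%, that of Gclm.

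Oxidised glutathione is returned to its reduced form by glutathione reductase, encoded by Gsr (ENSMUSG00000031584, GRCm38 chr8:33652523-33698163, plus strand). Gsr was tight in DMSO at 48.8, 49.8, 49.1 and 46.8 CPM and stood at 83.2, 87.5, 97.97 and 87.6 CPM with olaparib and 110.5, 133 and 123 CPM in MNA replicates 1, 3 and 4 and 50.8 CPM in MNA replicate 2. The olaparib libraries lay above DMSO and below MNA replicates 1, 3 and 4. The log2 fold change was 0.87 ± 0.22 with olaparib and 1.10 ± 0.22 with MNA, or 1.33 ± 0.069 without MNA replicate 2. Gsr and Nfe2l2 were thus the members whose MNA libraries, replicate 2 aside, were above those of olaparib.

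The thioredoxin branch was represented by Txnrd1 (ENSMUSG00000020250, GRCm38 chr10:82833951-82897712, plus strand), the cytosolic thioredoxin reductase, and by Srxn1 (ENSMUSG00000032802, GRCm38 chr2:152105516-152111376, plus strand), the sulfiredoxin that repairs overoxidised peroxiredoxins. Txnrd1 stood at 435, 462, 415 and 454 CPM with DMSO, 642, 658, 649 and 585 CPM with olaparib and 515, 574 and 575 CPM in MNA replicates 1, 3 and 4 and 471 CPM in MNA replicate 2. Srxn1 stood at 218, 199, 175 and 203 CPM with DMSO, 535, 564, 633 and 537 CPM with olaparib and 572, 688 and 655 CPM in MNA replicates 1, 3 and 4 and 214 CPM in MNA replicate 2. For both genes olaparib did not overlap DMSO, and olaparib lay above MNA for Txnrd1 while the ranges crossed for Srxn1. Txnrd1 had the smallest olaparib difference of the 10 genes, with a log2 fold change of 0.52 ± 0.077, and stood at 0.27 ± 0.077 with MNA, or 0.33 ± 0.064 without MNA replicate 2. Srxn1 had the largest MNA difference of the 10, at 1.42 ± 0.27, or 1.68 ± 0.086 without replicate 2, beside 1.51 ± 0.27 with olaparib.

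Nqo1 (ENSMUSG00000003849, GRCm38 chr8:107388225-107403206, minus strand) encodes the quinone reductase that is widely used as a readout of NRF2. Its RNA was scarce in these cells, at 4.73, 3.72, 2.92 and 4.95 CPM with DMSO, 27.8, 22.1, 21.9 and 25.5 CPM with olaparib and 11.5, 9.26 and 6.92 CPM in MNA replicates 1, 3 and 4 and 3.402 CPM in MNA replicate 2. The lowest olaparib library was above the highest of any other group. Its log2 fold change of 2.58 ± 0.30 with olaparib, 5.97 times the DMSO level, was the largest of the 10, and that with MNA was 0.93 ± 0.30, or 1.18 ± 0.19 without MNA replicate 2. Even so, Nqo1 reached only 15.7 ± 1.83 RPKM with olaparib, against 201 ± 16.2 RPKM for Srxn1.

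Hmox1 (ENSMUSG00000005413, GRCm38 chr8:75093621-75100589, plus strand) encodes heme oxygenase 1, which degrades heme and is also controlled by BACH1. It stood at 405, 371, 353 and 379.8 CPM with DMSO, 631, 569, 654 and 611 CPM with olaparib and 500.5, 465 and 369 CPM in MNA replicates 1, 3 and 4 and 356 CPM in MNA replicate 2. MNA replicate 4 lay inside the DMSO range, so that Hmox1 was the only member whose MNA libraries other than replicate 2 overlapped DMSO. The log2 fold change was 0.71 ± 0.11 with olaparib and 0.16 ± 0.11 with MNA, or 0.24 ± 0.091 without MNA replicate 2. MNA replicate 4 is also the library with the highest sums of neutrophil and erythroid markers, whose part in this value was not tested.

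**Figure D3:**
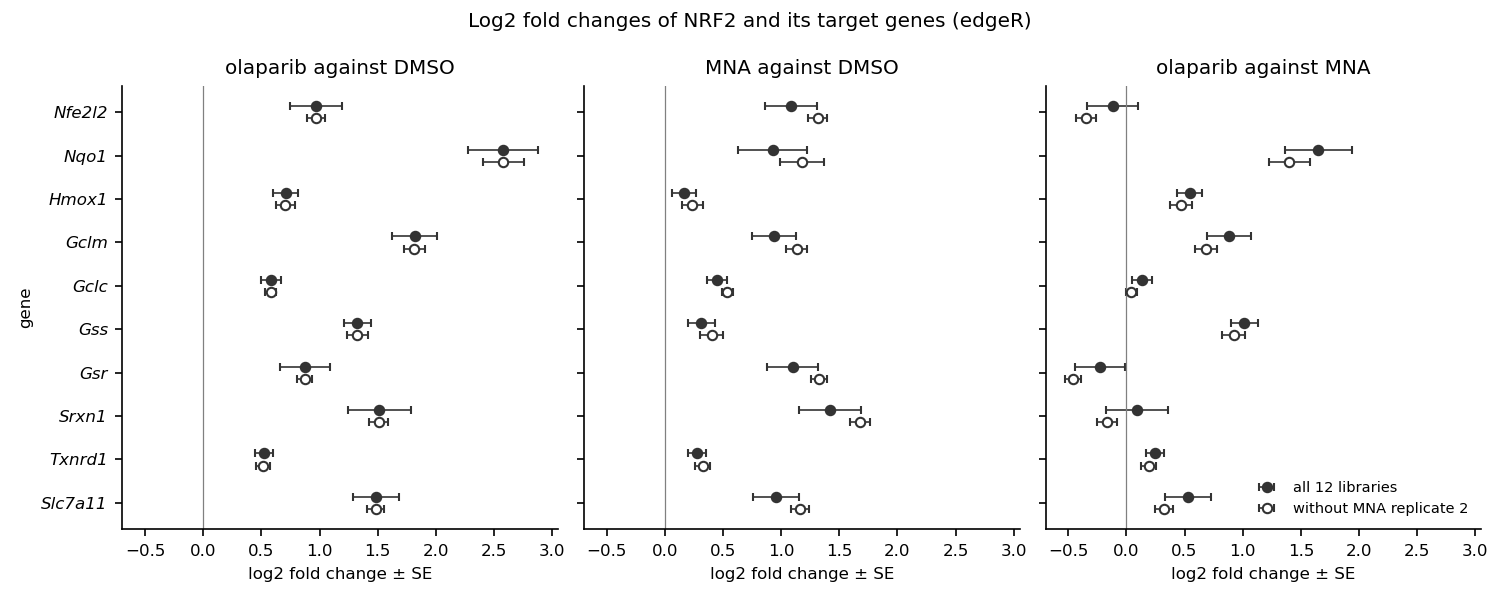
Horizontal axes give the log2 fold change of each gene with its SE from edgeR for the 3 comparisons. Filled points are fits of all 12 libraries and open points are fits without MNA replicate 2. With olaparib against DMSO all 10 values lie above 0, from 0.52 for Txnrd1 to 2.58 for Nqo1.

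The plot of fold changes sets the comparisons side by side, and both treatments share the same DMSO libraries. All 12 libraries also share 1 estimate of spread, so the SEs with olaparib depend on MNA replicate 2. For Gsr with olaparib the SE was 0.22 with that library in the fit and 0.065 without it. With a Benjamini-Hochberg adjusted p under 0.05 in edgeR taken as a call, 10 of 10 members were called higher with olaparib, where 14.3% of all tested genes were. With MNA 8 of 10 were called higher, where 16.3% of all tested genes were. An edgeR fit of the MNA and DMSO libraries alone called 0 members (9 at an unadjusted p under 0.05, and 9 in DESeq2 on all 12 libraries). That fit called 0 of all 12379 genes tested in it. Leaving out 1 of the 12 libraries gave 6 to 10 members, where 408 of 13050 (without MNA replicate 3) to 3543 of 13023 tested genes (without MNA replicate 2) were called higher. Without MNA replicate 2 the counts were 10 with olaparib, beside 22.5% of all genes, and 10 with MNA, beside 27.2%. As these contrasts were in view when the genes were chosen, nothing is read from the counts. The members' median log2 fold change was 1.15 with olaparib and 0.93 with MNA, or 1.15 without MNA replicate 2, beside medians over all tested genes of 0.00378, 1.96e-04 and -0.00147. By library, all 10 members had olaparib levels wholly above DMSO, which held for 20.7% of tested genes. For MNA it held for 3 members, beside 6.24% of genes, and without replicate 2 for 9, beside 27.2%.

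Olaparib was also set directly against MNA, again as a description. The log2 difference of olaparib from MNA was 1.65 ± 0.29 for Nqo1, 1.01 ± 0.12 for Gss, 0.88 ± 0.19 for Gclm, 0.54 ± 0.11 for Hmox1, 0.53 ± 0.19 for Slc7a11 and 0.25 ± 0.077 for Txnrd1. With MNA replicate 2 left out these were 1.40 ± 0.18, 0.92 ± 0.098, 0.68 ± 0.093, 0.47 ± 0.092, 0.32 ± 0.079 and 0.19 ± 0.065, all with the same sign. For Nfe2l2 the difference was -0.12 ± 0.22, or -0.35 ± 0.083 without MNA replicate 2, and for Gsr -0.23 ± 0.22, or -0.46 ± 0.068. For Srxn1 the sign turned from 0.092 ± 0.26 to -0.17 ± 0.086, and Gclc stood at 0.13 ± 0.086, or 0.042 ± 0.049. In the fit of 12 libraries 5 members were called higher with olaparib, where 10.9% of all genes were, and 0 lower (0 in DESeq2), where 10.9% were. Without MNA replicate 2 there were 6 higher, beside 21.5% of all genes, and 2 lower, beside 20.7%. This contrast, too, was in view when the genes were chosen, and nothing is read from these counts.

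Among themselves the 10 genes followed a closely shared pattern over the 12 libraries, as a description of points that share groups and libraries. Pearson's r of a gene with the mean profile of the other 9, on log2 CPM, ran from 0.816 for Gsr and 0.872 for Nfe2l2 to 0.985 for Gclm and 0.994 for Slc7a11. Of the 9627 genes outside the gene lists with a mean of at least 100 counts, the 5 closest to the members' mean profile were Panx1 (r = 0.992), Alas1 (0.988), Nlrx1 (0.986), Pdcd4 (0.985) and Pygl (0.985). Alas1, the first and rate-limiting enzyme of heme synthesis, stood at 111 ± 8.06 CPM with DMSO, 255 ± 17.6 CPM with olaparib and 222 ± 4.396 CPM with MNA without replicate 2. Panx1, a channel that releases ATP, stood at 15.4 ± 0.873, 33.03 ± 1.26 and 29.5 ± 1.997 CPM in the same groups. Pygl, liver-type glycogen phosphorylase, stood at 20.04 ± 4.97, 65.3 ± 2.14 and 53.7 ± 7.62 CPM.

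Genes other than the members were taken from 6 lists, 114 genes in all, of which 106 were tested. The lists, too, were chosen with earlier results of these data known. Apart from Keap1, Bach1 and Mafg, the genes named from them below had the smallest p-values of their list in a comparison. The counts and p-values below therefore describe these libraries and are not an independent test. With olaparib 34 were called higher and 23 lower, where 12.8% of all tested genes were called lower. With MNA 24 were higher and 21 lower, where 12.3% of all genes were lower. Without MNA replicate 2 the counts were 41 and 30 with olaparib, where 21.2% of all genes were lower, and 36 and 46 with MNA, where 26.9% were. The calls against DMSO with MNA changed with the libraries in the fit. Without MNA replicate 3 they numbered 6 and 0, where 408 of all 13050 tested genes were called higher and 55 lower. An edgeR fit of these 2 groups alone gave 0 and 0 (30 and 29 at an unadjusted p under 0.05), and 0 and 0 over all 12379 genes tested there. Both fits held MNA replicate 2, and the cause of the change was not tested. The 0 without MNA replicate 3 stands beside 29 at an unadjusted p under 0.05, and DESeq2 on all 12 libraries called 29 higher and 30 lower. Medians over the 106 genes were 0.063 with olaparib and -0.10 with MNA on the log2 scale.

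**Figure D4:**
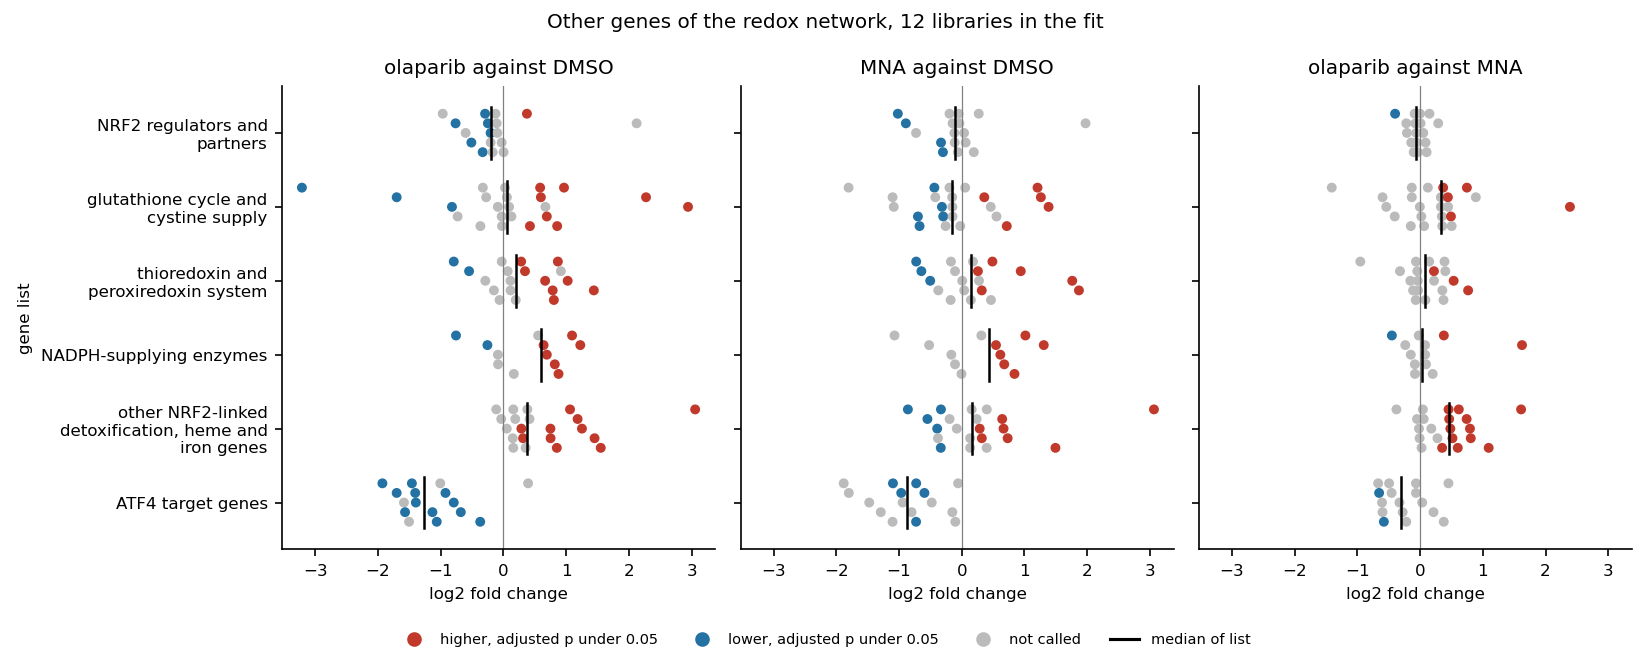
Each point is a tested gene of 1 of 6 lists, placed by its log2 fold change in each of the 3 comparisons, in the fit of 12 libraries. Red points are called higher and blue points lower at an edgeR adjusted p under 0.05, grey points are not called, and the black lines mark list medians, which run from -1.26 for ATF4 target genes to 0.60 for NADPH-supplying enzymes with olaparib.

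The plot of other lists shows the regulators of NRF2 first. Of 17 tested regulators and partners, 1 rose and 6 fell with olaparib, and 0 rose and 4 fell with MNA. Leaving out MNA replicate 2 gave 2 and 8 with olaparib and 3 and 8 with MNA. Of all tested genes, 14.3% rose and 12.8% fell with olaparib and 16.3% and 12.3% with MNA, or 22.5%, 21.2%, 27.2% and 26.9% without MNA replicate 2, shares that apply to each list. The 0 with MNA stands beside 3 at an unadjusted p under 0.05 and 0 in DESeq2. The gene that rose with olaparib was Keap1, the inhibitor itself, from 32.3 ± 1.04 to 41.97 ± 2.57 CPM (log2 fold change 0.38 ± 0.11, edgeR adjusted p = 0.0265). With MNA Keap1 stood at 39.05 ± 6.99 CPM (0.27 ± 0.11, adjusted p = 0.0786), or at 42.3 ± 3.15 CPM without replicate 2 (0.39 ± 0.067, adjusted p = 2.47e-04). Bach1, the repressor, stood at 128 ± 16.3, 118 ± 9.79 and 124 ± 8.32 CPM with DMSO, olaparib and MNA, with no call against DMSO (adjusted p = 0.329 and 0.703). The small MAF gene Mafg had none either (adjusted p = 0.408 and 0.122), while its relative Mafk fell with olaparib (-0.51 ± 0.10, adjusted p = 0.004805, with no call for MNA at adjusted p = 0.414) and Maff with MNA (-0.89 ± 0.30, adjusted p = 0.0421, with no call for olaparib at adjusted p = 0.142). Crebbp, a coactivator of NRF2, and Gsk3b, a kinase that marks NRF2 for degradation, fell with olaparib (-0.29 ± 0.084 and -0.33 ± 0.095, adjusted p = 0.0242 and 0.0245) and with MNA (-0.30 ± 0.084 and -0.33 ± 0.095, adjusted p = 0.0254 and 0.0278, or -0.35 ± 0.079 and -0.45 ± 0.066 without MNA replicate 2). Leaving out 1 library ended the olaparib calls of Keap1 (without DMSO replicate 2, 3 or 4 or olaparib replicate 2 or 3, adjusted p up to 0.0731), Crebbp (without DMSO replicate 2 or 3 or olaparib replicate 1 or 4, up to 0.07197) and Gsk3b (without DMSO replicate 2, 3 or 4 or olaparib replicate 4, up to 0.0705). Each of those fits held MNA replicate 2. All of these olaparib calls held without that library and with olaparib and DMSO alone in the fit. The MNA calls of Crebbp and Gsk3b ended on leaving out any 1 of MNA replicates 1, 3 and 4 or DMSO replicates 2 and 3, and for Gsk3b also DMSO replicate 4 (up to 0.0815 and 0.0878). The MNA call of Maff ended on leaving out any 1 library other than MNA replicate 2, and without that library its log2 fold change was -1.39 ± 0.16.

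Of 23 tested genes of the rest of the glutathione cycle, 8 rose and 3 fell with olaparib, the latter close to the share of all genes, and 5 rose and 5 fell with MNA. The counts without MNA replicate 2 were 9 and 5 with olaparib and 6 and 11 with MNA. Mgst2, a microsomal glutathione transferase, rose with olaparib from 0.361 ± 0.209 to 2.79 ± 0.963 CPM, a low level (2.94 ± 0.44, edgeR adjusted p = 0.00109), with no call for MNA (adjusted p = 0.383). Mgst3 (0.69 ± 0.12, adjusted p = 0.00198) and the secreted peroxidase Gpx3 (2.27 ± 0.40, adjusted p = 0.00257) rose with olaparib and also with MNA (0.36 ± 0.12 and 1.39 ± 0.40, adjusted p = 0.0394 and 0.0282, or 0.46 ± 0.092 and 1.64 ± 0.34 without MNA replicate 2). Abcc1, which exports glutathione conjugates, rose from 77.5 ± 5.23 to 140.4 ± 22.7 CPM with olaparib (0.86 ± 0.25, adjusted p = 0.0256) and to 186 ± 70.7 CPM with MNA (1.26 ± 0.25, adjusted p = 0.0142, or 1.50 ± 0.11 without MNA replicate 2). Gstp1 rose with MNA (1.21 ± 0.26, adjusted p = 0.0147, or 1.45 ± 0.12 without MNA replicate 2), and for olaparib the adjusted p was 0.0723. Gpx4, the peroxidase that repairs lipid peroxides, fell with MNA from 336 ± 7.95 to 249 ± 54.3 CPM (-0.44 ± 0.12, adjusted p = 0.0255, or -0.60 ± 0.067 without MNA replicate 2) and stood at 349.8 ± 30.03 CPM with olaparib, higher than with MNA (0.49 ± 0.12, adjusted p = 0.0143). Gstp1, Gpx4 and Gstm1 share 38.5%, 38.9% and 28.8% of their 31-base words with near-identical copies, and their values are uncertain to that extent. The MNA call of Gstp1 ended without MNA replicate 3 or 4 (adjusted p up to 0.0516). Those of Gpx4, Gpx3 and Mgst3 ended on leaving out any 1 of MNA replicates 1, 3 and 4 or DMSO replicates 2 to 4, and that of Mgst3 also on leaving out any 1 of olaparib replicates 1 to 3 (up to 0.0815, 0.0798 and 0.118). The olaparib call of Abcc1 ended without any 1 of olaparib replicates 1 and 2 or DMSO replicates 2 to 4 (up to 0.0675). It held without MNA replicate 2 and with olaparib and DMSO alone in the fit.

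Of 19 tested genes of the thioredoxin and peroxiredoxin system, 8 rose and 2 fell with olaparib, and 6 rose and 3 fell with MNA, or 9 and 6 without MNA replicate 2. Prdx1, an abundant peroxidase and substrate of sulfiredoxin, stood at 1742, 1762, 1390.2 and 1938 CPM with DMSO, 4682, 4697, 4359 and 4834 CPM with olaparib and 6367, 7229.9 and 7486 CPM in MNA replicates 1, 3 and 4 and 2094 CPM in MNA replicate 2. It rose with both treatments (1.44 ± 0.30, edgeR adjusted p = 0.00541, and 1.76 ± 0.30, adjusted p = 0.0142, or 2.04 ± 0.096 without MNA replicate 2). As for Nfe2l2, MNA libraries other than replicate 2 lay above those of olaparib, and without that library Prdx1 was lower with olaparib than with MNA (-0.60 ± 0.095, adjusted p = 1.96e-04), whereas with it there was no call (-0.32 ± 0.29, adjusted p = 0.472). Cat, the catalase gene, rose with olaparib from 178 ± 10.1 to 363 ± 8.75 CPM (1.03 ± 0.12, adjusted p = 2.56e-04), rose less with MNA (0.49 ± 0.12, adjusted p = 0.0195, or 0.62 ± 0.059 without MNA replicate 2), and differed between them (0.54 ± 0.12, adjusted p = 0.00936). Msrb1, a methionine sulfoxide reductase, rose with olaparib (0.81 ± 0.11, adjusted p = 5.27e-04), with no call for MNA (adjusted p = 0.798). The cytosolic dismutase Sod1 rose with olaparib (0.79 ± 0.20, adjusted p = 0.0136) and with MNA (0.94 ± 0.20, adjusted p = 0.0142, or 1.14 ± 0.094 without MNA replicate 2). The MNA call of Sod1 ended without MNA replicate 3 (adjusted p = 0.0505), and that of Cat on leaving out any 1 of MNA replicates 1, 3 and 4 or DMSO replicates 2 and 3 (up to 0.0652). Prdx1 shares 15.4% of its 31-base words with other genes.

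Glutathione and thioredoxin reductases draw on NADPH, and the enzymes that supply it rose in part. Of 12 genes, 6 rose and 2 fell with olaparib, and 6 rose and 0 fell with MNA. With MNA replicate 2 left out, 7 rose and 3 fell with MNA. The 0 with that library stands beside 3 at an unadjusted p under 0.05 and 2 in DESeq2. G6pdx and Pgd, the oxidative enzymes of the pentose phosphate pathway, rose with both. Pgd went from 199.7 ± 18.9 CPM to 427 ± 9.26 CPM with olaparib (1.10 ± 0.20, edgeR adjusted p = 0.00332) and 404 ± 130.3 CPM with MNA (1.02 ± 0.20, adjusted p = 0.0142, or 1.23 ± 0.069 without MNA replicate 2). G6pdx went from 173 ± 12.7 CPM to 319 ± 13.6 and 277 ± 62.5 CPM (0.88 ± 0.14 and 0.68 ± 0.14, adjusted p = 0.00148 and 0.0142, or 0.83 ± 0.065 for MNA without replicate 2), and 23.6% of its words are shared, mainly with G6pd2. Idh1 rose with olaparib (0.69 ± 0.12, adjusted p = 0.00226), and for MNA the adjusted p was 0.06405. Me1, the cytosolic malic enzyme, was higher with olaparib than with MNA at 14.5 ± 1.11 against 4.68 ± 3.60 CPM (1.63 ± 0.38, adjusted p = 0.0105), with DMSO between at 9.86 ± 2.76 CPM and no call against DMSO (adjusted p = 0.269 and 0.0502). Me1 shares 36.9% of its words with other genes, mainly Gm7049, and its values are uncertain to that extent.

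Other NRF2-linked genes of detoxification, heme and iron handling had 11 of 21 genes higher and 0 lower with olaparib, and 7 higher and 5 lower with MNA. Set directly against MNA, olaparib had 12 higher and 0 lower. Without MNA replicate 2 the counts were 14 and 0 with olaparib, 11 and 7 with MNA, and 13 and 1 between them. In the fit of 12 libraries the 0 against DMSO and the 0 against MNA stand beside 0 and 1 at an unadjusted p under 0.05 in edgeR, and 0 and 0 in DESeq2. Cbr3, a carbonyl reductase, stood at 25.97, 24.9, 24.9 and 28.8 CPM with DMSO and 53.7, 63.97, 64.95 and 66.5 CPM with olaparib, and rose (1.25 ± 0.11, edgeR adjusted p = 2.51e-05). It stood at 29.2 ± 4.26 CPM with MNA, below olaparib (1.09 ± 0.11, adjusted p = 4.91e-05) and with no call against DMSO (adjusted p = 0.256). Ptgr1, which reduces prostaglandins and unsaturated carbonyls, had the same order of means, at 73.2 ± 6.92, 91.4 ± 12.9 and 153 ± 5.55 CPM with DMSO, MNA and olaparib (olaparib against DMSO 1.06 ± 0.100, adjusted p = 4.61e-05, and MNA against DMSO 0.32 ± 0.099, adjusted p = 0.0342, or 0.41 ± 0.074 without MNA replicate 2). The heme transporter Slc48a1 rose with olaparib (0.75 ± 0.078, adjusted p = 9.98e-05) and with MNA (0.29 ± 0.077, adjusted p = 0.0232, or 0.35 ± 0.059 without MNA replicate 2). The MNA calls of Ptgr1 and Slc48a1 ended on leaving out any 1 of MNA replicates 1, 3 and 4 or DMSO replicates 2 to 4 (adjusted p up to 0.112 and 0.07503). Slc40a1, the iron exporter ferroportin, rose with both, from 2.14 ± 0.828 to 17.5 ± 4.52 CPM with olaparib (3.06 ± 0.63, adjusted p = 0.00536) and 17.6 ± 11.5 CPM with MNA (3.06 ± 0.63, adjusted p = 0.0142, or 3.47 ± 0.25 without MNA replicate 2), where MNA replicate 2 had 1.504 CPM. Osgin1, an oxidative stress-induced growth inhibitor, rose from 14.3 ± 2.99 to 41.8 ± 2.92 CPM with olaparib (1.55 ± 0.30, adjusted p = 0.004003) and to 40.2 ± 17.3 CPM with MNA (1.49 ± 0.30, adjusted p = 0.0142, or 1.77 ± 0.13 without MNA replicate 2).

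ATF4, the factor of the amino acid response, also has Slc7a11 among its known targets, and Atf4 and further targets, 16 genes in all, were counted and all tested. With olaparib 0 rose and 12 fell, Atf4 among them, and with MNA 0 rose and 5 fell. Without MNA replicate 2, 14 fell with olaparib and 13 with MNA, and again 0 rose. In the fit of 12 libraries no gene of the list was higher than with DMSO at an unadjusted p under 0.05 in edgeR, or called higher in DESeq2, and in a fit of olaparib and DMSO alone 1 gene was higher at an unadjusted p under 0.05. The list median was -1.26 with olaparib and -0.87 with MNA, and the part of ATF4 in the level of Slc7a11 was not tested. Psat1 and Shmt2, enzymes of serine and glycine metabolism, fell with olaparib from 308 ± 33.4 to 141 ± 11.6 CPM (-1.13 ± 0.19, edgeR adjusted p = 0.00195) and from 116 ± 14.4 to 43.97 ± 6.23 CPM (-1.40 ± 0.25, adjusted p = 0.00262). With MNA the adjusted p of Psat1 was 0.0702, and Shmt2 fell (-0.73 ± 0.24, adjusted p = 0.0437, or -1.10 ± 0.14 without MNA replicate 2). Atf4 fell with olaparib (-0.68 ± 0.13, adjusted p = 0.00345), had no call with MNA (adjusted p = 0.554) and was lower with olaparib than with MNA (-0.58 ± 0.13, adjusted p = 0.00803). Slc7a5, which like Slc7a11 pairs with Slc3a2, fell from 74.2 ± 6.26 to 26.99 ± 2.67 CPM with olaparib (-1.46 ± 0.32, adjusted p = 0.00706) and to 37.96 ± 25.0 CPM with MNA (-0.96 ± 0.31, adjusted p = 0.04001). Ddit3 and Sesn2 fell with olaparib (-1.06 ± 0.33 and -0.79 ± 0.24, adjusted p = 0.0347 and 0.0294) and with MNA (-1.10 ± 0.33 and -0.73 ± 0.24, adjusted p = 0.0324 and 0.0407). The MNA log2 fold changes of Slc7a5, Ddit3 and Sesn2 without MNA replicate 2 were -1.53 ± 0.12, -1.74 ± 0.094 and -1.09 ± 0.13. The MNA calls of these 3 genes and of Shmt2 ended on leaving out any 1 DMSO library or any 1 of MNA replicates 1, 3 and 4, and all but that of Ddit3 also on leaving out any 1 olaparib library (adjusted p up to 0.114, 0.0964, 0.117 and 0.124). The olaparib call of Ddit3 ended without any 1 DMSO or olaparib library, and that of Sesn2 without any 1 of replicates 2 to 4 of either group (up to 0.0816 and 0.0752). Both held without MNA replicate 2 and with olaparib and DMSO alone in the fit.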

How the data were processed

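RNA of wildtype BMDMs was sequenced in 12 libraries, 4 each for DMSO, olaparib and MNA. Libraries were stranded and read from 1 end. The authors aligned them with STAR 2.5.2b (GRCm38.p5) and deposited unnormalized gene counts under Ensembl identifiers. Which strand column the counts hold is not given in the sources used here, so reads of overlapping genes on opposite strands may be mixed. Groups came from the sample labels.

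All 12 libraries entered 1 quasi-likelihood model in edgeR 4.0.16 (R 4.3.3) with TMM factors and no block, after filterByExpr (minimum count 10, minimum total 15), which kept 12849 genes. Calls had a Benjamini-Hochberg adjusted p under 0.05 over all tested genes, and SEs were taken from F. CPM was divided by the union exonic length of GENCODE vM21 to give RPKM. Depth was 21146291 to 31446849 counts. With 4 replicates per group, each p-value sets a group difference against a spread estimated over all 12 libraries. That spread includes MNA replicate 2, also for olaparib against DMSO. The common dispersion, which describes the spread between replicates, was 0.0333 with all 12 libraries and 0.0123 without MNA replicate 2. Same-numbered olaparib and DMSO libraries deviated together (Pearson r across genes 0.227, 0.172, 0.225 and 0.408). The study's legend gives 4 donor mice and does not say that a number marks a donor. The main fit used no pairing, so its SEs and p-values take no account of it. The replicate number entered as a block only among the alternatives.

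The members, the lists and the alternatives were chosen with earlier results of these data known. Named genes were the 10 members, Keap1, Bach1 and Mafg, up to 3 tested genes with the smallest p for each of 6 other lists and comparison, the 5 genes outside all lists with the highest Pearson r, and Slc3a2 and Acss2, named after their values were seen. Not all genes that this rule picks are described. The alternatives were DESeq2 1.42.0, RLE and upper quartile scaling, other filters, the replicate block, 2 groups alone, a threshold of 0.01 and each library left out. The scripts were tested on simulated counts. Python 3.11.15 was used for sequence words (31 bases) and promoters.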

Additional observations from a re-analysis of the deposited data

Results flagged for a closer look

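Among the 30 groups of 4 libraries formed by the 10 genes and 3 treatments, 6 had a library far from the other 3, by the ratio of its gap to the range of log2 CPM being above Dixon's critical value. Chance flags about 1 in 20 such groups. In 4 of the 6 it was MNA replicate 2, the lowest of its group for Nfe2l2 (ratio 0.888, 369 CPM), Gclm (0.838, 72.9 CPM), Gclc (0.958, 63.4 CPM) and Srxn1 (0.843, 214 CPM). The others were olaparib replicate 1, lowest for Nfe2l2 (0.866, 655 CPM), and DMSO replicate 3, lowest for Gss (0.849, 15.1 CPM).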

How the results depend on the processing

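Of the alternative values for the 10 genes with olaparib against DMSO, 209 kept their call and direction and 1 lost its call, where Gsr missed the threshold of 0.01. All 10 members were called higher with olaparib in every fit with 1 library left out, where 1231 of 12973 to 2935 of 13023 tested genes were. MNA against DMSO was less stable. Against 8 members called higher, 0 were called with the 2 groups alone in the fit and 0 at an adjusted p under 0.01, and 6 to 10 with 1 library left out. Over all tested genes, 0, 0 and 408 to 3543 were called higher in these fits. Against 24 other pathway genes called higher and 21 lower with MNA, the 2 groups alone and the threshold of 0.01 each gave 0 and 0, and leaving out 1 library gave 6 to 36 higher and 0 to 46 lower. The replicate block gave 32 lower, and the replicate block without MNA replicate 2 gave 37 higher and 48 lower. With olaparib the 23 other genes called lower became 7 at the threshold of 0.01, 31 with the 2 groups alone and 13 to 30 with 1 library left out. The highest of these leave-out counts, 30, was without MNA replicate 2. For olaparib against MNA, other genes called higher (22) became 12 at the threshold of 0.01, 42 with the replicate block without MNA replicate 2 and 17 to 39 with 1 library left out. Those called lower (4) became 7 with DESeq2, 2 with the 2 groups alone, 1 at the threshold of 0.01, 14 with the replicate block without MNA replicate 2 and 2 to 13 with 1 library left out. Members called lower (0) became 2 with the replicate block without MNA replicate 2, and were 0 to 2 with 1 library left out. Over all tested genes, 2790 and 916 to 2698 were called lower in these fits.

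Signs turned only for values without a call. For olaparib against MNA, the log2 difference of Srxn1 was -0.17 without MNA replicate 2 and -0.17 with the replicate block as well (-0.17 to 0.23 with 1 library left out), and that of Keap1 was -0.012 and -0.017 (-0.012 to 0.18). Bach1 with MNA was 0.040 without DMSO replicate 3 (-0.0943 to 0.040). The causes were not tested. Same-numbered MNA and DMSO libraries had a Pearson r of 0.242, 0.114, -0.0094 and 0.277, and MNA replicates 2 and 3 correlated better with another number. For olaparib and MNA the values were 0.070, 0.137, 0.131 and 0.392, and only olaparib replicate 1 correlated better with another number. The MNA deviations are from group means that include MNA replicate 2. The replicate block with all 12 libraries gave the same number of members called in each comparison (10, 8 and 5), where 1974, 2184 and 1502 of all 12849 tested genes were called higher. For olaparib against MNA these 5 held Slc7a11 in place of Txnrd1, and among the other genes described the block ended only the call of Gstm1 with MNA against DMSO. Over all tested genes, 2093 higher and 1580 lower calls with MNA became 3543 and 3499 without MNA replicate 2, 408 and 55 without MNA replicate 3, and 0 and 0 with the 2 groups alone (4728 at an unadjusted p under 0.05) and at the threshold of 0.01. With olaparib 1834 and 1641 became 2935 and 2759 without MNA replicate 2, 2886 and 2834 with the 2 groups alone, and 852 and 530 at 0.01. For olaparib against MNA 1395 and 1405 became 2805 and 2698, 961 and 847, and 698 and 468, in the same order. With 4 libraries a group and MNA replicate 2 near DMSO, MNA values rest largely on the other 3. For Hmox1 MNA replicate 4 (369 CPM) also lay inside the DMSO range of 353 to 405 CPM. Small MNA differences such as this one are the least certain.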
